A study of Homo sapiens with 24 samples.

Results

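Under E7107, most exon–intron boundaries of HCT116 cells expressing WT PHF5A that changed by 10 points or more were read through more often, but a smaller set went the other way. Described here are the 1062 boundaries at which the share of unspliced reads was lower under E7107 than under DMSO in WT cells. The measure is the percent spliced in (PSI), which for a boundary is the percentage of reads at a splice site that run from the exon straight into the intron, among all junctions that use the site. A boundary was a member when its mean PSI was at least 10 points lower in WT E7107 than in WT DMSO, its highest WT E7107 sample lay below its lowest WT DMSO sample, and its site had reads in all 24 samples. Of 202775 boundaries with reads in all samples, 1062 met these conditions (0.524%). A fall of 10 points needs a starting level of at least 10%, and of the 25562 boundaries with a WT DMSO mean of 10% or more, 4.15% were members. In the opposite direction, 48434 boundaries were at least 10 points higher with no overlap (23.9%), of which 5803 started from 10% or more (22.7% of those). The members were thus chosen by their WT values, which are given as a description without a test.

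The cells are HCT116 (labelled HCT-116), a human colorectal carcinoma line, infected with lentivirus to express either wild-type (WT) PHF5A or the Y36C mutant, and kept as selected pools that still hold their own PHF5A gene. Each genotype was treated with DMSO, the solvent control, or with the pladienolide derivative E7107, a splicing modulator, for 6 h, and the labels give no dose. Solvent and E7107 in both genotypes make 4 groups, with 6 samples of polyA RNA in each. The methods describe the treatment as done in hexaplicate and do not say whether the samples span separate days or passages, so p-values measure the spread between these samples. The level of PHF5A itself could not be checked, because the files used hold junction percentages and no expression values.

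During splicing, the U2 snRNP recognizes the branch point adenosine upstream of the 3′ splice site, and its SF3b subcomplex, which contains SF3B1 and PHF5A, clamps the intron around that adenosine. E7107 and related compounds bind SF3b in this pocket and hinder branch point recognition, and tyrosine 36 of PHF5A lines the pocket. Some introns remain in a part of the polyadenylated transcripts even in untreated cells. Such retained introns often keep the RNA in the nucleus or expose it to decay. The levels described here are reads across single boundaries, and a high level need not mean that the whole intron was retained.

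No read counts or totals were used, so the depth behind each PSI is unknown and no counting interval can be given. The number of splice sites with reads ranged from 337517 to 340081 in WT cells under DMSO and from 281164 to 283548 under E7107, and in Y36C cells from 336249 to 338547 and from 328458 to 331604. Sites with reads were thus fewest in the group that chose the members, and the part of this in the falls was not tested. Whether the libraries kept the strand is not given in the sources used here. Reads from a gene on the other strand can therefore not be told apart, and 81 members (7.63%) have an annotated exon of the other strand just past the site.

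The sequences at 4 introns are shown because their boundaries carry both patterns found in Y36C cells: RSRP1 was lower under E7107 in both genotypes, and METTL3, SLC12A9 and CD44 were lower in WT and higher in Y36C. Each line covers 30 bases of GRCh37 (hg19), read 5′ to 3′ on the strand of the gene, and capitals mark the first and the last 2 bases of the intron.
RSRP1 donor, chr1:25571621-25571650, minus strand: aaagcctgaaGTaagtattctaggtttgtc
RSRP1 acceptor, chr1:25570120-25570149, minus strand: ttacactttttcttaacctgtctAGctgtc
METTL3 donor, chr14:21967430-21967459, minus strand: cgtagctgagGTatgtgcttcccaggcctc
METTL3 acceptor, chr14:21967277-21967306, minus strand: aaagcagctagtttttatttcctAGgttcg
SLC12A9 donor, chr7:100458875-100458904, plus strand: ccaacttccgGTgagagactcagatctgtg
SLC12A9 acceptor, chr7:100458989-100459018, plus strand: tccctcctcccctccatgcccgcAGcccca
CD44 donor, chr11:35218412-35218441, plus strand: caaatggctgGTaatgagttattattatct
CD44 acceptor, chr11:35219643-35219672, plus strand: ccactaatgcaagtcaccacaacAGgtacg
All 4 introns begin with GT and end with AG. A log2-odds score of each site, summed over positions against equal base frequencies and trained on 388948 annotated introns, was 11.0 at the METTL3 acceptor, 8.21 at RSRP1, 5.18 at SLC12A9 and 1.12 at CD44. The 4 acceptors thus spanned sites close to and far from the usual pattern.

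The 1062 members lay in 629 genes. Of these genes 399 held a single member, 137 held 2 and 93 held 3 or more, and 1 member lay in no annotated gene. Members in protein-coding genes numbered 1017, and 37 were in lncRNA genes. Acceptors, the boundaries at the 3′ end of an intron, made up 636 of the members (59.9%), and donors 426. Acceptors were 50% of all boundaries, 52.8% of those with a WT DMSO mean of 10% or more and 51.2% of those raised from such a level.

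Over the members, the median PSI of a sample lay between 25.8 and 28% in WT DMSO and between 4.08 and 4.83% in WT E7107. It lay between 24.2 and 27.3% in Y36C DMSO and between 31.5 and 33.3% in Y36C E7107. The boundaries with a WT DMSO mean of 10% or more had sample medians of 23 to 25%, 38.5 to 42.1%, 21.9 to 23.4% and 33.3% in the same order. The 2 DMSO groups and Y36C E7107 thus had members close to this wider set, and in WT E7107 the members were low by choice. The median fall in WT was 18.2 points, and 453 members were lower by 20 points or more and 80 by 40 or more. In all 6 WT E7107 samples 209 members were listed at 0, whereas 41 kept a mean above 50%.

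**Figure D1:**
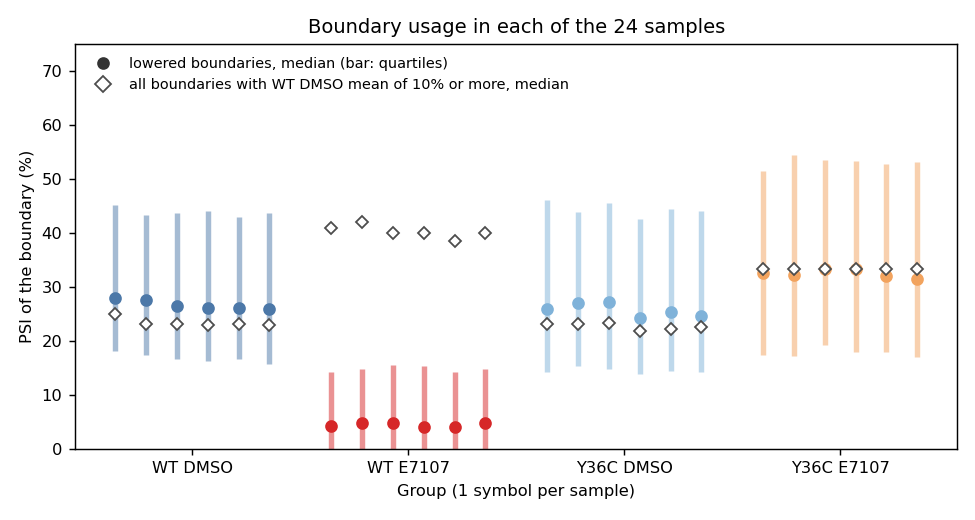
PSI of the lowered boundaries in each of the 24 samples (y axis, percent; x axis, group with 1 symbol per sample; dots are medians over the 1062 members, bars their quartiles, diamonds the medians of all 25562 boundaries with a WT DMSO mean of 10% or more). The WT E7107 dots lie between 4.08 and 4.83% while the diamonds there lie between 38.5 and 42.1%, and in Y36C E7107 dots and diamonds lie close together.

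Among members whose SD was at most 8 points in each group, the acceptor of a 1516-base intron of RSRP1 had the largest difference. RSRP1 encodes an arginine- and serine-rich protein. Its PSI was 72.3, 75.2 and 83.6% (lowest, median and highest of the 6 samples) in WT DMSO and 16.7, 27.5 and 32.0% in WT E7107. The acceptor of a 253-base intron of QTRT1, the catalytic subunit of the enzyme that inserts queuine into tRNAs, had a mean of 61.3% ± 5.4 (SD, n = 6) in WT DMSO and 13.5% ± 1.7 (SD, n = 6) in WT E7107. For CDK5RAP3, a protein of the UFM1 conjugation pathway, the means were 66.2% ± 4.6 and 21.0% ± 4.1 (SD, n = 6 each). At these acceptors the boundary reads went from the majority to the minority of the reads at the site in WT cells.

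Other boundaries fell in WT cells from lower starting levels. The donor of a 348-base intron of DMKN, which encodes the secreted epidermal protein dermokine, had means of 43.5 and 5.06% in WT DMSO and WT E7107. LRP5, a Wnt co-receptor, had 36.6% in WT DMSO and was listed at 0 in every WT E7107 sample, at the acceptor of a 5656-base intron. LLGL2, a cell polarity protein, had 42.0 and 6.40%, and LARGE2, a glycosyltransferase that modifies dystroglycan, had 38.5 and 4.65% at the donor of a 70-base intron. High levels that stayed substantial were those of CTDSPL, a small phosphatase, at 88.4 and 54.1%, and ACADVL, the mitochondrial very-long-chain acyl-CoA dehydrogenase, at 54.9 and 20.7%. HNRNPA2B1, an hnRNP protein that binds pre-mRNA, had 75.3 and 41.6% at the acceptor of a 1366-base intron.

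The Y36C samples entered the choice only through the requirement of reads at the site, and their PSI values, which were not used, allowed a test of the same boundaries. In limma on log odds (natural logarithm) of the PSI in the 12 Y36C samples, 987 members could be tested, and 75 had a PSI of 0 in some sample of both groups and could not. At an adjusted p of 0.05 or less, 36 members were lower under E7107 in Y36C cells (3.65% of those tested), where 1.3% of all 74528 tested boundaries and 2.12% of the 22411 tested with a WT DMSO mean of 10% or more were. Higher under E7107 were 234 members (23.7%), against 29.6% and 27.1% in these sets. The share that went up was thus near the background, and 717 tested members passed in neither direction. Of the members tested, 47 had entered only because PSI was above 0 in all Y36C E7107 samples and 56 only because it was in all Y36C DMSO samples.

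The same picture came from the change in points. The median change in Y36C cells was 4.24 points over the members, 4.67 over the boundaries with a WT DMSO mean of 10% or more and 0.41 over all boundaries. The Y36C mean was higher under E7107 at 731 members and lower at 331. The same shares over the wider sets are not given here, so these counts are not read as particular to the members. A difference of at least 10 points without overlap between the Y36C groups was found at 113 members in the upward direction (10.6%, with backgrounds of 3.03% of all boundaries and 12.8% of those starting from 10% or more). In the downward direction it was found at 15 (1.41%, with backgrounds of 0.0577% and 0.442%).

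**Figure D2:**
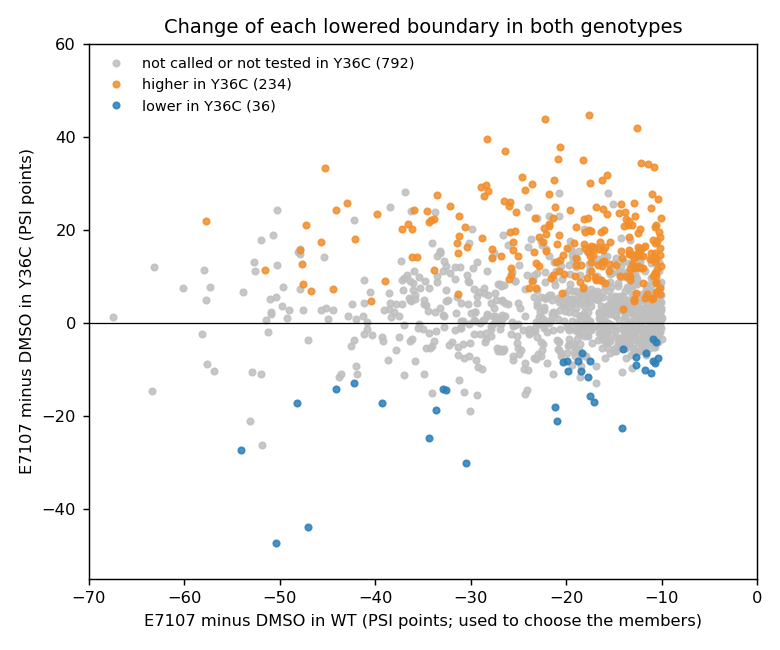
Change of each of the 1062 members in WT (x axis, E7107 minus DMSO in PSI points, the values that chose the members) and in Y36C cells (y axis, the same difference). Orange dots are the 234 members higher in Y36C by limma, blue dots the 36 lower, and grey dots those not called or not tested; most dots lie at or above 0 on the y axis.

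RSRP1 stood first among the members lower in both genotypes. Its PSI was 65.9, 72.0 and 76.9% in Y36C DMSO and 20.5, 24.3 and 27.6% in Y36C E7107, and the log odds differed by −2.03 ± 0.10 (SE; limma, adjusted p = 4.9e-07). The Y36C groups did not overlap, and the levels were close to those in WT cells. At SPG7, which encodes a subunit of a mitochondrial protease, the acceptor of a 12011-base intron had 33.5 and 16.0% in WT and 28.0 and 12.3% in Y36C (limma, adjusted p = 2e-04). At OR51B5, an olfactory receptor gene, the acceptor of a 4410-base intron had 24.0, 27.6 and 29.3% in Y36C DMSO and 9.55, 15.9 and 18.7% in Y36C E7107 (limma, adjusted p = 0.0014), and in WT cells 26.2, 30.2 and 33.4% and 5.03, 11.3 and 25.2%.

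The other named members of this kind had lower starting levels. The acceptor in NT5C2, a cytosolic purine nucleotidase, had means of 13.7 and 2.55% in WT and 15.9 and 5.04% in Y36C (limma, adjusted p = 0.026). The donor in PTPRS, a receptor tyrosine phosphatase, had 12 and 0.26% in WT and 11.2 and 1.00% in Y36C (limma, adjusted p = 2.8e-04). Some Y36C E7107 samples were listed at 0 at NT5C2 and at PTPRS. Both thus entered the test only through Y36C DMSO, the group where they were higher. At HAUS4, a subunit of the augmin complex of the spindle, the values were 22.5 and 2.74% in WT and 18.5 and 8.24% in Y36C (limma, adjusted p = 0.047). An exon of the other strand lies just past the HAUS4 site. Over the 36 members lower in Y36C, the median change there was −11.2 points.

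At other members the Y36C cells went up where the WT cells had gone down. METTL3, the catalytic subunit of the mRNA m6A methyltransferase, was a member at both ends of a 168-base intron. Its donor had 43.8, 49.0 and 52.7% in WT DMSO, 14.3, 19.8 and 27.6% in WT E7107, 41.7, 45.8 and 51.0% in Y36C DMSO and 70.8, 75.6 and 80.4% in Y36C E7107. Its acceptor had means of 52.2, 16.2, 52.4 and 76.7% in this order. Both ends passed the test in Y36C (limma, adjusted p = 6.4e-06 at the donor and 5.5e-05 at the acceptor), and an exon of the other strand lies past the acceptor.

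CD44, the hyaluronan receptor at the cell surface, was a member at the donor of a 1246-base intron. Its PSI was 23.1, 30.5 and 42.5% in WT DMSO, 5.88, 8.59 and 12.7% in WT E7107, 24.1, 29.0 and 35% in Y36C DMSO and 53.8, 59.0 and 64.5% in Y36C E7107. The Y36C difference was 1.24 ± 0.10 in log odds (SE; limma, adjusted p = 1.2e-05). The donor of a 129-base intron of SLC12A9, a member of the cation-chloride cotransporter family, had means of 22.5 and 6.19% in WT and 20.2 and 51.0% in Y36C (limma, adjusted p = 3.5e-04). In both genes the Y36C E7107 samples lay above every sample of the other groups.

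Among members with an SD of at most 8 points in each group, the largest rise in Y36C was at TTF2, a factor that releases RNA polymerase II from DNA, whose acceptor had 19.9 and 9.07% in WT and 23 and 56.5% in Y36C (limma, adjusted p = 2.1e-06). CLN6, an endoplasmic reticulum protein needed for lysosome function, had 12.5 and 2.09% in WT and 13.7 and 40.4% in Y36C (limma, adjusted p = 5.1e-06). KNTC1, a kinetochore protein of the spindle checkpoint, had 48.7 and 22.8% in WT and 62.7 and 88.6% in Y36C (limma, adjusted p = 4.2e-04). Among the members with the largest falls in WT, LRP5 (33.5 and 54.8%; adjusted p = 0.0014), LLGL2 (45.2 and 59.5%; adjusted p = 2e-04) and LARGE2 (49.0 and 71.3%; adjusted p = 8.2e-05) rose in Y36C by limma. The 234 members called higher had a median change of 15.8 points in Y36C. The difference between the genotypes was not tested at any of these genes, because the WT samples chose them.

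At 6 of the boundaries with the largest WT falls the Y36C difference did not pass the test. There the QTRT1 acceptor had 69.6 and 77.0% (limma, adjusted p = 0.057), the CDK5RAP3 acceptor 66.0 and 69.1% (adjusted p = 0.21), and HNRNPA2B1 73.1 and 75.5% (adjusted p = 0.24). The opposite ends of the QTRT1 and CDK5RAP3 introns were members as well and did rise in Y36C. The QTRT1 donor had 67.7 and 76.1% (limma, adjusted p = 0.024) and the CDK5RAP3 donor 57.0 and 61.6% (adjusted p = 0.02). DMKN had 36.8 and 41.2% (limma, adjusted p = 0.37), CTDSPL 92.0 and 89.9% (adjusted p = 0.53) and ACADVL 60.5 and 55.1% (adjusted p = 0.09). At these 6 boundaries that did not pass the Y36C groups overlapped, and a p above the threshold does not show that the levels were equal.

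**Figure D3:**
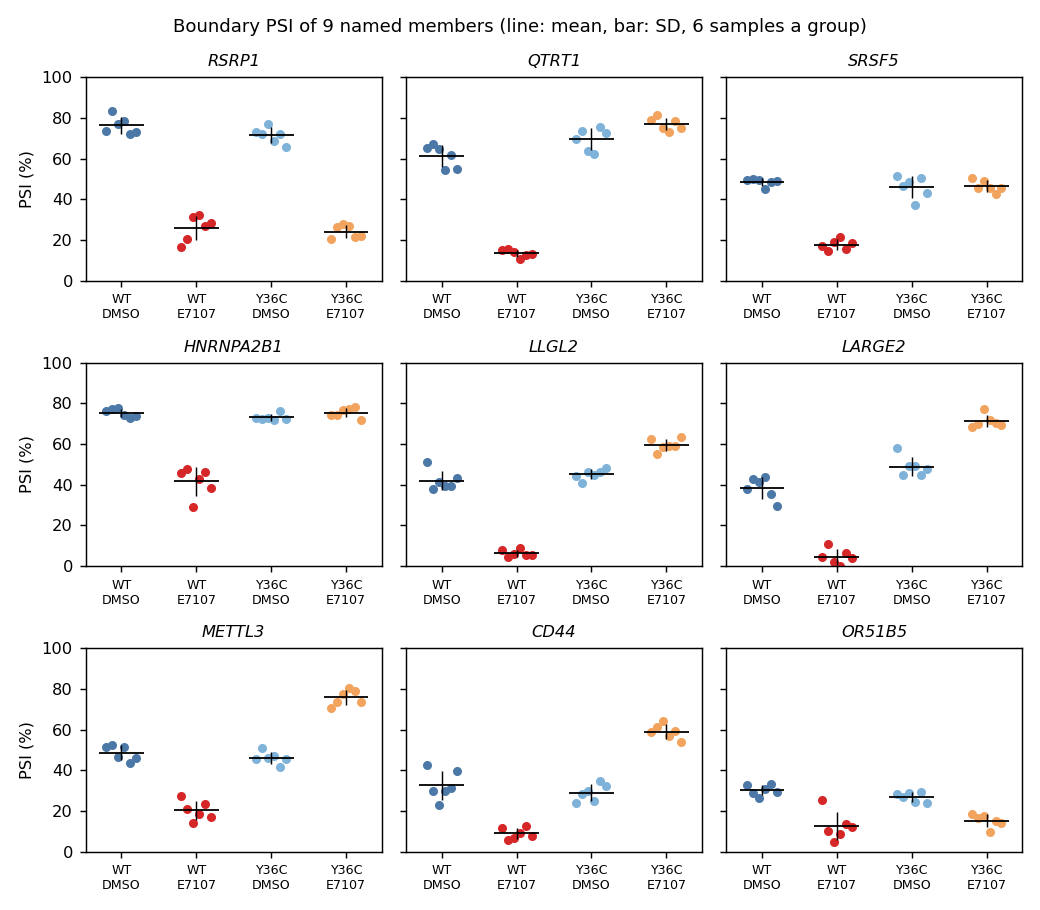
Boundary PSI (y axis, percent) of 9 named members in the 4 groups (x axis); each dot is 1 sample, the line the mean and the bar the SD of 6 samples, and METTL3 is shown at its donor. RSRP1 and OR51B5 are low in both E7107 groups, whereas METTL3, CD44, LLGL2 and LARGE2 are low in WT E7107 and highest in Y36C E7107.

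The percentages at a site add up to 100, so what a boundary lost in WT cells other junctions gained. The 1062 sites held 3859 spliced junctions, with a median of 3 and at most 38 a site. Of these junctions 1981 had a higher mean in WT E7107, 1035 by at least 10 points, while 1147 were lower and 15 of them by at least 10 points. At 195 sites only 1 spliced junction was listed, so that its gain mirrors the loss of the boundary and adds no information. The junction that gained most was also the most used spliced junction in WT DMSO at 1003 sites, and it was annotated at 1025.

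This leading junction took at least 90% of the gain at 839 sites and under 60% at 56. Its mean was higher by a median of 18.4 points in WT E7107. At 208 sites it skips an annotated exon, and the same share at other boundaries was not counted. At RSRP1 the junction across the same intron, which skips an annotated exon, went from 22.0 to 74.1% in WT and from 27.5 to 75.5% in Y36C. At QTRT1 it went from 38.5 to 85.5% in WT and stood at 30.1 and 22.8% in Y36C, and at CD44 it went from 64.4 to 87.2% and stood at 68.4 and 38.3%. Among named members lower in both genotypes, the leading junction rose in Y36C by limma at RSRP1, SPG7, OR51B5 and NT5C2. The leading junction skips an annotated exon at RSRP1, SPG7 and NT5C2 and not at OR51B5. At PTPRS it went from 52.7 to 66.5% in WT but from 57.4 to 40.7% in Y36C (limma, adjusted p = 0.0099), where other junctions gained. At HAUS4 it had 35.3 and 48.5% in WT and 36.1 and 37.3% in Y36C (limma, adjusted p = 0.87). In the Y36C samples, 1049 leading junctions were tested and 48 were higher under E7107 (4.58%, with 7.06% of all tested spliced junctions and 5.41% of the leading junctions of boundaries starting from 10% or more). Lower were 267 (25.5%, with 14.5% of all tested spliced junctions). The lower share among the leading junctions of boundaries starting from 10% or more was not counted, so 25.5% is not read as particular to the members. The median change of the leading junctions in Y36C was −4.94 points.

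At 59 sites another junction than the main one gained most, and at 24 sites 2 or more junctions gained at least 10 points. The junctions described next were picked after their values were seen. At the METTL3 acceptor a 354-base annotated junction that skips an exon had 0.28% in WT DMSO and 21.3% in WT E7107, and took 58.3% of the gain. In Y36C it had 0.57 and 3.97% (limma, adjusted p = 0.0027). At the acceptor of a 78-base intron of HES4, a transcriptional repressor of the Hes family, the boundary had 50.1 and 18.4% in WT and an annotated 252-base junction that skips an exon had 8.65 and 39.5%. In Y36C this HES4 junction had 8.69 and 11.3% (limma, adjusted p = 0.28). Measured at its donor, also a member, the same HES4 junction had 14.4 and 44.9% in WT and 14.4 and 22.4% in Y36C (limma, adjusted p = 0.037), and the boundary there had 27.9 and 14.0% in WT and 32.0 and 52.8% in Y36C (adjusted p = 6e-04). At KLC1, a kinesin light chain, a 5440-base junction had 22.5 and 43.9% in WT and 22.1 and 26.1% in Y36C.

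The largest such switch was at an acceptor of ENSG00000266086 on chromosome 17, annotated as a protein-coding readthrough gene, which overlaps SRSF1, the gene of an SR protein, on the same strand. The boundary had means of 44.6 and 5.64% in WT and 48.1 and 57.1% in Y36C (limma, adjusted p = 0.038). The junction that gained was an unannotated one of 16004 bases, which joins the site to a donor in SRSF1 and had 1.55 and 80.2% in WT and 1.38 and 20.4% in Y36C (limma, adjusted p = 1e-07). Seen from the SRSF1 donor, this junction was a small part of the usage, with 0.14 and 2.07% in WT and 0.16 and 2.35% in Y36C. The 2 ends of this junction thus differ widely in share, since each end has its own set of competing junctions.

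A retained intron gives reads at both of its boundaries. The opposite boundary of the main intron was measured for 1043 members. Its WT mean was lower under E7107 at 944, at least 10 points lower at 584 and at least 10 points higher at 26, with a median change of −11.4 points. At 363 members it was itself a member, so that 193 of 892 distinct introns entered with both ends. At those 363 the fall was fixed by the rule. The other WT values come from the contrast that chose the members and were not tested. The median WT change was 4.50 points over all boundaries and 3.25 over those starting from 10% or more. At RSRP1 the opposite boundary had 64.1 and 33.6% in WT and 60.2 and 30.1% in Y36C. At QTRT1 and CDK5RAP3 it fell in WT as well, with 61.5 and 13.9% and with 54.6 and 14.1%. At KNTC1 and SPG7 it went the other way in WT, with 41.0 and 53.0% and with 4.88 and 17.2%. At LLGL2 it had 57.5 and 60.1% in WT. In WT DMSO it had 0.68% at the 5656-base intron of LRP5 and 5.99% at the 1366-base intron of HNRNPA2B1, where the members had 36.6 and 75.3%. Member levels there do not measure retention of the whole intron. Of the opposite boundaries that were no members, 569 were tested in Y36C, where limma found 122 higher (21.4%) and 21 lower (3.69%). Of all tested boundaries 29.6% were higher and 1.3% lower, and of those starting from 10% or more 27.1% and 2.12%. The opposite boundaries were not required to start from 10%, so neither set matches them in starting level.

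The other boundaries of the same genes, with the opposite ends left out, were compared with those of genes without members. The 16115 other boundaries had a median WT change of 0.30 points (quartiles −1.71 and 3.91), and 12% were at least 10 points higher and 4.53% at least 10 points lower. The 184939 boundaries of genes without members had a median of 5.32 points (quartiles 0.57 and 19.2), with 38.2% at least 10 points higher and 1.04% at least 10 points lower. In WT the median of genes with members was thus near 0 where that of other genes was above 5 points, and these values come from the contrast that chose the members and were not tested. Of 579 such genes with at least 5 other boundaries, 47.5% had a median fall in WT and 8.81% a median rise of 10 points or more, as against 13.2% and 38.5% of 8456 genes without members.

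In Y36C cells the order of these sets was reversed. The other boundaries of genes with members had a median change of 0.99 points and 12.1% were at least 10 points higher, while the boundaries of genes without members had 0.37 points and 6.37%. Limma called 33.9% of 6833 tested boundaries of the first kind higher and 0.86% lower, and 29.3% and 1.29% of 66159 of the second kind. The 2 sets differed in starting level, with median WT DMSO PSI of 2.21 and 1.23%, and the part of that was not tested.

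**Figure D4:**
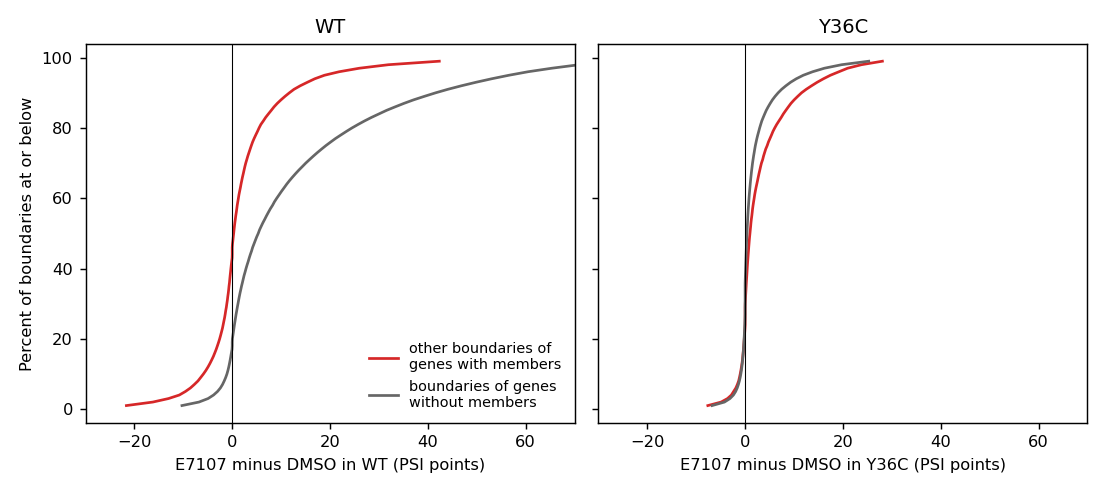
Cumulative share of boundaries (y axis, percent) against their change under E7107 in PSI points (x axis) in WT (left) and Y36C (right), for the 16115 other boundaries of genes with members (red) and the 184939 boundaries of genes without (grey), drawn from the 1st to the 99th percentile. In WT the red curve lies left of the grey one, with medians of 0.30 and 5.32 points, and in Y36C slightly to its right, with 0.99 and 0.37 points.

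In 3 genes many boundaries were lowered at once. DMKN held 12 members among 41 measured boundaries, and 36 of the 41 had a lower mean in WT E7107. Of the 12, limma called 2 higher and 1 lower in Y36C, where 23.7% and 3.65% of all tested members were. GPAT2, a glycerol phosphate acyltransferase of mitochondria, held 11 of 45 with 34 lower, and MACROD1, an enzyme that removes mono-ADP-ribose, held 10 of 21 with 16 lower. Of the 21 members in GPAT2 and MACROD1, limma called 0 in Y36C in either direction, against the same shares, and 2 had an unadjusted p under 0.05. Exons of the other strand lie past 5 of the GPAT2 sites. Members of MACROD1 had WT DMSO means of 14 to 31.7% and WT E7107 means of 0.79 to 7.91%.

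The introns at the members were then compared by features that the choice did not use. For 97.9% of members the site was an annotated splice site of its type, as for 99.1% of all boundaries. The base just past the site, on the intron side, lay within an annotated exon of another transcript at 63.4% of members, at 55.2% of the boundaries with a WT DMSO mean of 10% or more and at 22.8% of all boundaries. An exon of a transcript annotated as a retained intron lay there at 50.3%, 34.0% and 15.7%, and an exon of a protein-coding transcript at 11%, 23.9% and 5.76%. A single annotated exon covered the whole main intron at 38.9%, 27.1% and 9.38%. The share in annotated retained introns was thus higher at members than in the set of like starting level and the share in alternative coding exons lower, which is a description of these shares and was not tested.

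Length, base composition and splice site scores were closer to that set. The median length of the main intron was 851.5 bases at members, 758 at boundaries starting from 10% or more and 1412 over all, and the median GC content was 52.1%, 52.4% and 44%. Median donor scores were 7.72, 7.73 and 8.20 and median acceptor scores 8.32, 8.09 and 9.49. The first intron of a transcript was the main intron at 10.6% of members with a known position, at 20.9% of the boundaries starting from 10% or more and at 26% of those raised from such a level.

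Within the members, the introns split by their change in Y36C. The main introns of the 234 members higher in Y36C had a median length of 530.5 bases, 56.2% GC and an acceptor score of 6.63. Those of the 36 lower in Y36C had 1372 bases, 42.7% GC and a score of 9.10. Between them lay the 717 tested members called in neither direction, with 922 bases, 52.2% GC and a score of 8.65. Introns under 200 bases made up 25.2% of those higher in Y36C and 5.56% of those lower. The named members fell on both sides of these medians. Of those higher in Y36C, METTL3, SLC12A9 and LARGE2 have 168, 129 and 70 bases, whereas CD44, TTF2, CLN6, KNTC1, LLGL2 and LRP5 have from 1246 to 5656. Of those lower, RSRP1, NT5C2, HAUS4, OR51B5 and SPG7 have from 1516 to 12011 bases. PTPRS has 511, and an intron of HNRNPA2B1 with a lower acceptor has 532. These splits were noted as a description. The same split among all boundaries called in Y36C is not given here, so it is not read as particular to the members.

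**Figure D5:**
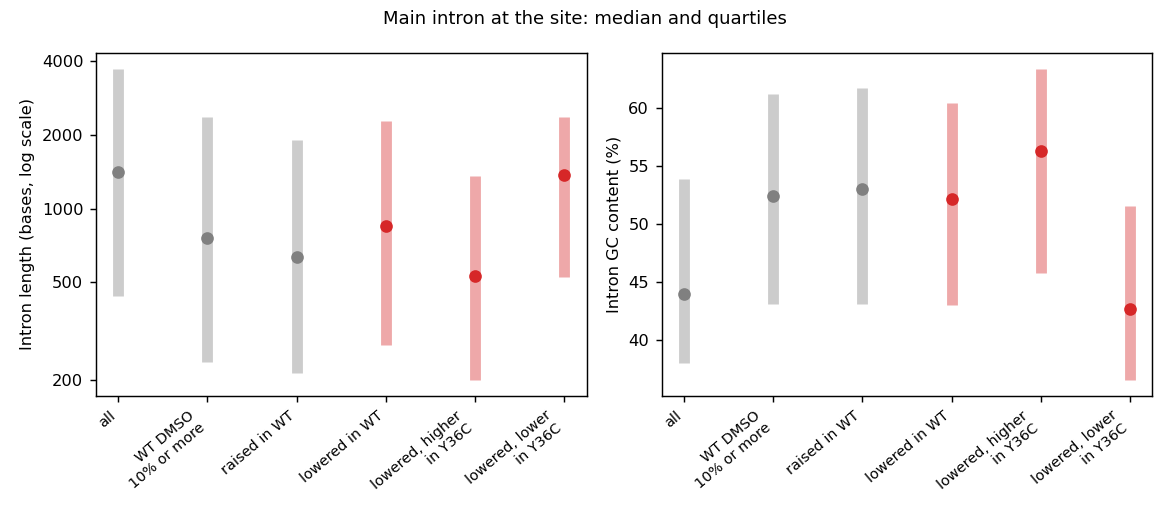
Length (left, bases on a log scale) and GC content (right, percent) of the main intron, as median (dot) and quartiles (bar), for all boundaries, those with a WT DMSO mean of 10% or more, those raised from such a level in WT (grey), the members, and the members higher and lower in Y36C (red). Members higher in Y36C have a median of 530.5 bases and 56.2% GC, and those lower in Y36C 1372 bases and 42.7%.

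Genes of splicing, RNA decay, polyadenylation, apoptosis and the cell cycle were counted by lists. The SR proteins, which bind exonic enhancers, had 2 members among 63 boundaries starting from 10% or more, both in SRSF5. At the acceptor of its 1215-base intron the SRSF5 PSI was 44.9, 49.2 and 50.1% in WT DMSO and 14.5, 17.7 and 21.6% in WT E7107. In Y36C the SRSF5 means were 46.1 and 46.5% (limma, adjusted p = 0.96). The list of hnRNP proteins, which also holds other RNA-binding proteins such as TIA1, had 8 members among 132, of which 3 were in HNRNPA2B1 and 5 in TIA1. Of these 8, limma called 1 higher and 2 lower in Y36C, as against 23.7% and 3.65% of all tested members.

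A second HNRNPA2B1 acceptor, of a 532-base intron, was 1 of those 2. Its means were 34.5 and 16.1% in WT and 31.6 and 25.2% in Y36C (limma, adjusted p = 0.01). There an unannotated 2034-base junction that skips an exon had 20.7 and 47.4% in WT and 13.3 and 25.3% in Y36C (limma, adjusted p = 5e-05). At TIA1, an RNA-binding protein that promotes the use of weak donors, the acceptor with the largest difference had 26.6 and 6.84% in WT and 16.1 and 28.6% in Y36C (limma, adjusted p = 0.24), with Y36C E7107 samples from 8.7 to 53.7%.

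Factors of the 3′ splice site and the U2 snRNP had 1 member among 77 such boundaries, in SF3B1, the largest SF3b protein. The SF3B1 acceptor had 90.8 and 76.7% in WT and 94.2 and 92.9% in Y36C (limma, adjusted p = 0.60). The opposite end of its main intron had only 5.73 and 6.26% in WT and 7.48 and 5.13% in Y36C. The main junction held 8.79% at this acceptor in WT DMSO, so the acceptor levels do not measure retention of that intron. Nonsense-mediated decay factors had 1 among 39, in UPF3A, with 52.6 and 8.82% in WT and 45.9 and 34.3% in Y36C (limma, adjusted p = 0.091). Cleavage and polyadenylation factors had 1 among 49, in CPSF1, with 32.5 and 21.4% in WT and 30.7 and 55.4% in Y36C (limma, adjusted p = 4.6e-05). Apoptosis regulators had 1 among 40, in the inflammatory caspase gene CASP4, with 15.3% in WT DMSO and 0 in every WT E7107 sample. The opposite ends of the UPF3A and CASP4 introns had 3.56 and 0.72% in WT DMSO, and that of the CPSF1 intron had 33.2%. CASP4 could not be tested in Y36C. Splicing kinases (24 boundaries) and cell cycle regulators (126) had 0 members. With 4.15% of such boundaries being members in all, these counts describe the lists and single none of them out.

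At the threshold, the members just inside were boundaries of ATP2C1 (−10.01 points in WT), PITRM1 (−10.02) and MPDU1 (−10.03). Those just outside were boundaries of ATPSCKMT (−9.96), RMDN1 (−9.95) and SFXN4 (−9.95). A boundary on either side of the limit thus differed by less than 0.1 point.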

How the data were processed

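RNA-seq of 24 HCT116 samples, 6 in each of 4 groups taken from the sample titles, was used. Reads had been aligned by STAR to hg19, per the labels, and the authors deposited 1 table per sample that gives each junction as a percent (PSI) of all junctions sharing its splice site. Boundary reads are listed as intervals 2 bases wide. Each table has 1830076 lines, of which 6433 were left out as mitochondrial or strandless. A site whose percentages summed to 0 was taken as having no reads. No counts were used, so depth and counting error are unknown.

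The percentages were turned into natural-log odds with 1 percentage point added to both parts. Y36C E7107 and Y36C DMSO were compared by limma (version 3.58.1, R 4.3.3) with Benjamini–Hochberg adjustment over all boundaries and spliced junctions tested, at 0.05. A line was tested when its site had reads in each of the 12 samples and when 1 of the groups, or both, had no PSI of 0. The fit was tested on simulated data. Introns, exons and genes came from GENCODE release 44 lifted to GRCh37, and sequences from that build. The main junction of a site is its spliced junction with the highest WT DMSO mean.

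Named were the 12 members with the largest fall in WT, the 6 with the largest fall and the 6 with the largest rise among those called in Y36C (all with an SD of at most 8 points in each group, 1 per gene), up to 3 per gene list, 3 on each side of the threshold and the 3 genes with most members. The members and gene lists were chosen with earlier results of these data known. Alternatives covered the offset, the scale, the filter, the replicate block, single replicates left out and the fit on all samples. Another 2 were chosen after seeing the data, namely leaving out members with an exon on the other strand and those with an SD above 8 points.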

Additional observations from a re-analysis of the deposited data

Results flagged for a closer look

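Of 92 groups of 6 samples at 23 named members, 5 held a sample set apart from the rest of its group by more than Dixon's 95% critical value, and chance alone sets apart about 1 group in 20. CDK5RAP3 had 74.84% in replicate 1 of WT DMSO, where the next sample had 66.67%. LARGE2 had 57.95% in replicate 1 of Y36C DMSO, with the next at 49.47%. HNRNPA2B1 had 76.38% in replicate 5 of Y36C DMSO, with the next at 72.99%. HAUS4 had 1.639% in replicate 1 of Y36C E7107, with the next at 7.937%. PTPRS had 1.538% in replicate 1 of WT E7107, where the other samples were listed at 0.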

How the results depend on the processing

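The number of members followed the threshold: 1711 boundaries were lower by at least 5 points without overlap, 453 by at least 20, and 688 of the 1062 had an SD of at most 8 points in both WT groups. Of 36 members lower in Y36C, 234 higher and 48 leading junctions higher, the counts were 23, 162 and 37 with no filter on PSI above 0, where all 1062 members were tested and 15.3% were higher in place of 23.7%. With a minimum change of 10 points, 22 members were lower and 29 leading junctions higher. The shares over all boundaries and spliced junctions under the alternative settings are not given here. The changed counts are thus not set against a background of the same setting. Among members with an SD of at most 8 points in each group, chosen after seeing the data, 21 of 424 were lower, 125 higher and 29 leading junctions higher. These counts are smaller because fewer members were counted, but the shares were larger. They were 4.95% in place of 3.65%, 29.5% in place of 23.7% and 6.65% in place of 4.58%. The 29.5% lies above the 27.1% of tested boundaries starting from 10% or more, which had no SD limit. Leaving out 1 replicate number at a time gave 25 to 34 lower, 177 to 204 higher and 39 to 43 leading junctions. With the replicate block the counts were 28, 187 and 39. Same-numbered Y36C samples did not deviate together (correlations of −0.0069 to 0.0016, with 0 of 6 samples closest to their own number). No pairing by number was thus seen on this measure. Other kinds of pairing and the WT samples were not examined. In protein-coding transcripts alone, the share with an exon past the site was 11% in place of 63.4%, and that at an annotated site 91.5% in place of 97.9%, since fewer exons were counted. Other offsets, PSI itself and all 24 samples in 1 fit gave 29 to 39 lower, 194 to 239 higher and 39 to 50 leading junctions. Depth could not be weighed, because no counts were used.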
